A study of Mus musculus with 7 samples.

Results

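The glucagon gene Gcg lies on mouse chromosome 2 between 2 genes for serine peptidases, Dpp4 and Fap, with Ifih1 beyond Fap. ATAC-Seq peaks were examined across these 4 genes, all of which are read from the minus strand. Any peak that overlapped a gene body or 20 kb of flank at each end was included. Peaks that touched each other in different libraries were merged, which gave 120 regions of 834695 in the whole series. Of these, 29 regions were called in 2 or more libraries, against 133698 in the whole series. Regions were taken by position alone, although the genes themselves were picked with earlier results of these data known.

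Glucagon is the hormone that raises blood glucose, and pancreatic alpha cells are its main source. The same gene encodes the precursor that intestinal L cells cut into the incretin GLP-1. Dpp4 cleaves GLP-1 and glucose-dependent insulinotropic peptide, Fap is its closest relative and is best known from activated fibroblasts, and Ifih1 (also called MDA5) is a cytoplasmic sensor of double-stranded RNA. ATAC-Seq uses a transposase that cuts where DNA is free of nucleosomes, so a peak marks accessible chromatin, such as an active promoter or a distal regulatory element.

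The series holds 7 libraries of FACS-sorted islet cells, 2 of alpha, 3 of beta, and 2 of delta cells, all labelled as healthy. All came from triple transgenic reporter mice that carried mIns1-H2b-mCherry, Rosa-LSL-YFP, and either Gcg-Cre or Sst-Cre, with animals pooled by sex. The red nuclear reporter marks cells that use the insulin 1 promoter, and YFP marks cells in which Gcg-Cre (alpha) or Sst-Cre (delta) was ever active. The alpha gate therefore rested on a Gcg driver, so the state of Gcg itself was not independent of how the alpha cells were sorted. Which driver line gave each beta library, the age of the mice, and whether a driver carries extra copies of Gcg sequence are not given in the labels, and the part of such copies in any peak was not tested.

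The lists held between 75860 and 518503 distinct peaks, and the longest was beta 1. Only 5.0% of the beta 1 peaks reached a -log10 q of 2 (a false discovery rate of 1 in 100 as MACS2 estimates it), against 29.8% to 54.9% in the other libraries, so the tests and region counts below are also given without it. The 3 lists labelled beta were deposited under names of a different cell type, and the label was followed in each case. Marker genes were looked up within 1 kb of any annotated transcript start, since the outermost annotated end can lie far from the usual promoter. Counting peaks whose -log10 q reached 2, the 6 alpha markers had one at 6 genes in both alpha libraries, at 1, 2, and 1 in beta 1, 2, and 3, and at 5 and 4 in delta 1 and 2. The 6 beta markers had one at 3 genes in both alpha libraries, at 3, 3, and 4 in the beta libraries, and at 5 and 4 in the delta libraries. The 4 delta markers had one at 3 genes in both alpha and both delta libraries, and at 1, 0, and 0 in the beta libraries. No library had a peak at the start of Ppy. By these counts the alpha and delta markers were called less often in the beta libraries, while the beta markers had such a peak at 3 to 5 genes in every library. The beta lists also held the fewest peaks of that strength, 25903, 32047, and 38058, against 41683 to 52057 in the other lists. The part of that difference in the marker counts was not tested, so they do not settle the labels.

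**Figure D1:**
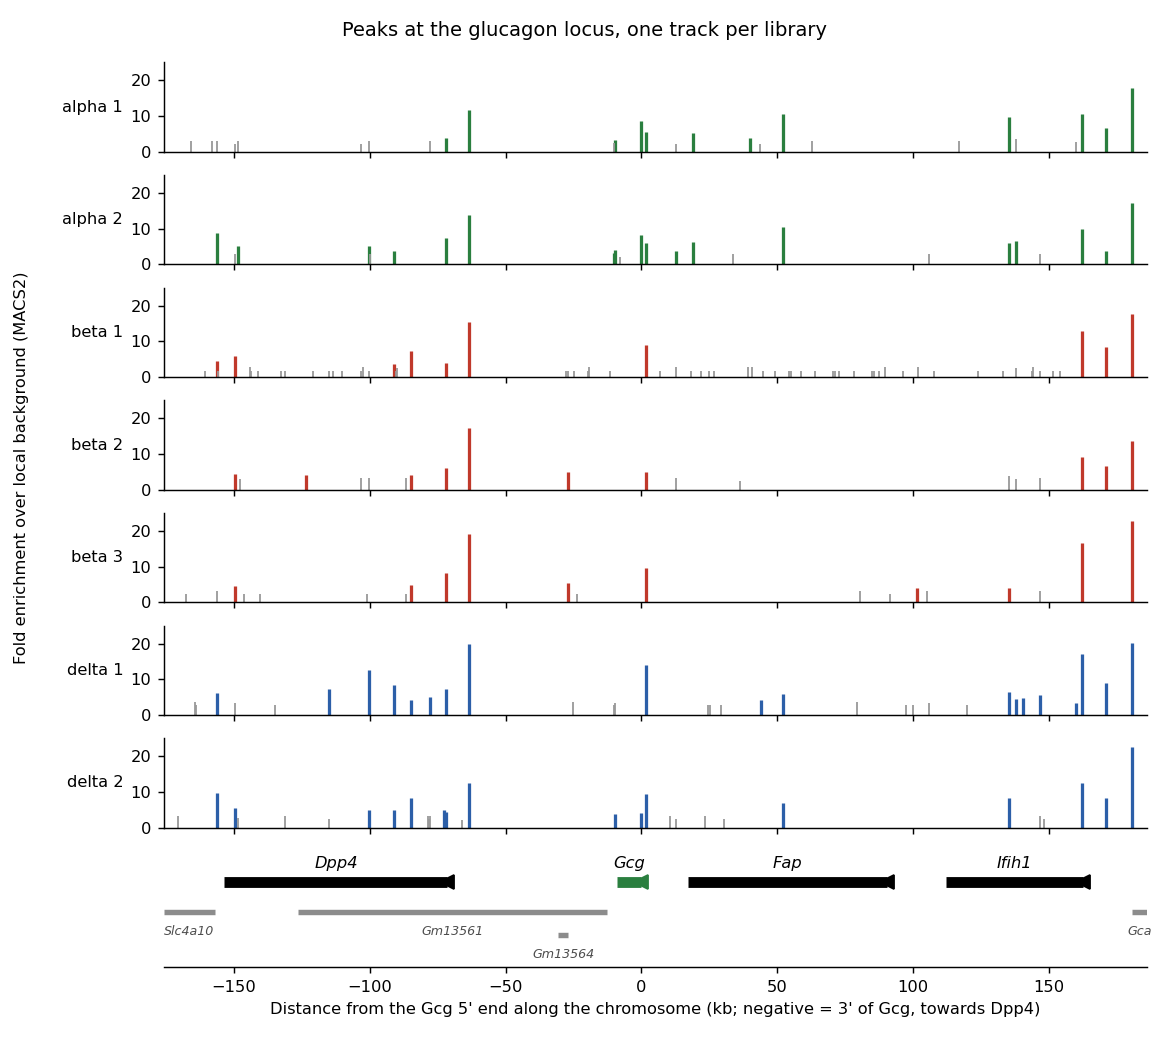
Fold enrichment over local background (vertical axis, as MACS2 reports it) of every peak in the windows, by its distance in kb from the Gcg 5′ end (horizontal axis), with a track for each library and gene bodies underneath, where arrowheads mark the 5′ ends of the 4 members. Coloured lines are peaks whose -log10 q reached 2 and grey lines are weaker peaks; the line at the Gcg 5′ end is present in alpha 1, alpha 2, and delta 2, and beta 1 carries many weak peaks.

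The start of Gcg was called in both alpha libraries, in 1 delta library, and in no beta library. Gcg (ENSMUSG00000000394.15) spans chr2:62474530-62483650 on GRCm38 and is 9121 bp long. The region at its start, chr2:62483427-62483948, covers the untranslated part of the leading exon and the promoter. Fold enrichment over local background there was 8.6 in alpha 1 and 8.14 in alpha 2. Delta 2 had 4.0, while delta 1, beta 1, beta 2, and beta 3 had no peak. Both alpha libraries were therefore above every other library, and the 2 delta libraries did not match each other. The -log10 q of these peaks was 16.8, 16.5, and 2.4, so the delta 2 peak was just past the limit of 2.

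To compare libraries whose lists differ in length, the best peak within 1 kb of a gene's 5′ end was ranked by -log10 p within its own list, as a percentile from 0 (no peak) to 100. In beta 1 a peak of a given fold ranks high, because most of its long list is weak. For Gcg this percentile was 94.1 and 91.6 in the alpha libraries, 47.1 in delta 2, and 0 in the other 4 libraries. The alpha mean was 92.8 ± 1.78 (SD, n = 2), the delta mean 23.6 ± 33.3 (SD, n = 2), and the beta mean 0 (n = 3). The alpha libraries were 83.4 percentile points above the mean of all others. An exact permutation test of the spread between cell types over all 210 assignments of the libraries gave p = 0.0381, and 0.152 after Benjamini-Hochberg adjustment over the 8 tests of the 4 genes. Alpha against all other libraries gave an exact permutation p of 0.0476, the smallest that such a split allows, and 0.19 adjusted. Neither passed the threshold of 0.05 after adjustment. The smallest p that the comparison of 3 cell types allows is 0.00952, which for a lone result adjusts to 0.0762. Without beta 1 the difference was 81.0 points (exact permutation p = 0.2). By lane in the names of the deposited lists, the alpha mean was 92.8 and the single beta value 0 within lane 6, and within lane 7 the delta mean was 23.6 and the beta mean 0; alpha and delta libraries shared no lane, so these cell types and the lane cannot be told apart.

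The 250 bases before the Gcg start, all within the region called there, are shown from RefSeq (chr2:62483654-62483903, GRCm38.p6, minus strand, 5′ to 3′). Capitals mark 2 copies of the E-box letters CATCTG, both on the opposite strand and starting 139 and 83 bases before the start, and the TATA-box letters TATAAA, on this strand at 24 and on the opposite strand at 72 bases before the start.

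Gcg promoter: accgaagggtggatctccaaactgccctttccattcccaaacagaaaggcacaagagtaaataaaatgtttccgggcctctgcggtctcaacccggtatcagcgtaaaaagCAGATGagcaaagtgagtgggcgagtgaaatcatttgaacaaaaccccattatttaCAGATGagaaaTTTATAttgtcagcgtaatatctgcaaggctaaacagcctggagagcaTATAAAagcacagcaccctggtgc

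An E-box is the element read by basic helix-loop-helix factors such as Neurod1. CATCTG occurred in 17.2% and TATAAA in 13.6% of 32841 RefSeq promoters of 300 bases, counting both strands. The cAMP response element TGACGTCA, found in 1.79% of promoters, was not among the letters of this window. The region called at the start runs on to chr2:62483948, and the bases beyond the window were not searched. The ratio of observed to expected CpG was 0.423 in the Gcg promoter, at percentile 53.0 of all promoters, whose median was 0.384.

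A second accessible region lay 1467 bp upstream of the Gcg 5′ end, and it was called in all 7 libraries. This region, chr2:62484966-62485391, is intergenic, between Gcg and the 3′ end of Fap. Its fold enrichment was 5.6 and 5.96 in the alpha libraries, 8.87, 4.92, and 9.56 in the beta libraries, and 13.9 and 9.33 in the delta libraries. Every one of these peaks had a -log10 q of at least 3.96, and the 7 summits fell within 73 bp. The alpha values lay inside the range of the beta values and below both delta values. Within a library, the ratio of the fold at the start to the fold at the upstream region was 1.54 in alpha 1, 1.37 in alpha 2, and 0.429 in delta 2. Only in the alpha libraries, among these 7, was the start the higher of the pair.

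The 250 bases around the summit of the upstream region are shown because this region is shared where the start is not (chr2:62484993-62485242, GRCm38.p6, minus strand). Capitals mark CATCTG on this strand, TATAAA on the opposite strand, and the interferon response letters GAAANNGAA on this strand.

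Gcg upstream region: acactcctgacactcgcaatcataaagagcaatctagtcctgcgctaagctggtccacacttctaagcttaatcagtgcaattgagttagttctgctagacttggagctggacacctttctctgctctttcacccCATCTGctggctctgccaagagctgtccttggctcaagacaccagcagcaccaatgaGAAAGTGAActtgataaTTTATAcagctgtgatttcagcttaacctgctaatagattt

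Because of this upstream region, the comparison at Gcg depends on how wide the start is taken to be. With a distance of 3 kb from the 5′ end in place of 1 kb, all 7 libraries had a Gcg peak, the percentiles ranged from 82.4 to 99.2, and the difference between alpha and the other libraries was 1.48 points (exact permutation p = 0.981, adjusted p = 0.981). The alpha difference at Gcg was thus present within 1 kb of the 5′ end and not within 3 kb.

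**Figure D2:**
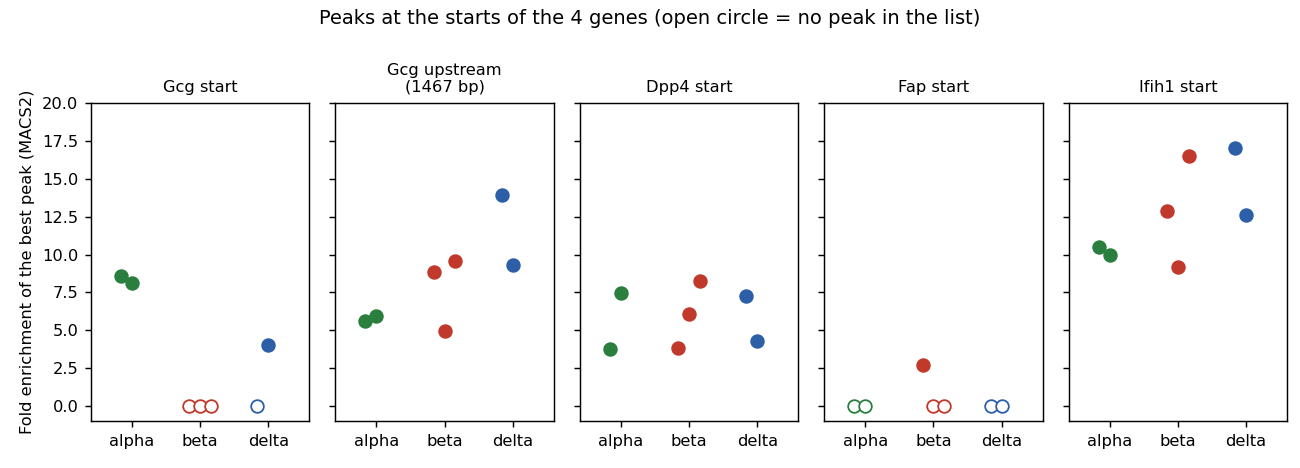
Fold enrichment (vertical axis, as MACS2 reports it) of the best peak in each library by cell type, for the starts of Gcg, Dpp4, Fap, and Ifih1 and for the region 1467 bp upstream of Gcg; each circle is a library and open circles at 0 are libraries with no peak. The Gcg start is called in both alpha libraries (8.6 and 8.14) and delta 2 (4.0), while the upstream region and the starts of Dpp4 and Ifih1 are called in all 7.

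Further regions in the Gcg window (chr2:62454530-62503650) were called in alpha and in no beta library. A region 9584 bp downstream of the 5′ end, just beyond the 3′ end of the gene at chr2:62473825-62474397, had a fold enrichment of 3.28 and 4.1 in the alpha libraries, 3.37 in delta 1, and 3.97 in delta 2. The delta 1 peak was under a -log10 q of 2 (1.65), and the folds of alpha and delta libraries overlapped. A weaker neighbour at chr2:62473188-62473733 was called at 2.51, 3.3, and 2.91 in alpha 1, alpha 2, and delta 1, with a -log10 q above 2 in alpha 2 only. Both intergenic regions were absent from all 3 beta lists.

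The clearest alpha region outside the Gcg start lay 18875 bp upstream of it, inside the 3′ part of Fap (chr2:62502304-62502817). It was called in both alpha libraries, at a fold of 5.25 and 6.25 and a -log10 q of 4.52 and 6.25, and in no other library. Its summit was intronic, the region also overlapped a Fap exon annotated as untranslated in some transcripts, and the start of a short Fap transcript (chr2:62503424) lay within 1 kb. It was the only region of the 29 that was called in both alpha libraries and in no other, which is 3.45%, against 2.42% of all regions called in 2 or more libraries. Without beta 1 it was 3.57% against 6.36%, so that order turned.

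At the far end of the window, the start of the long noncoding RNA gene Gm13564 (chr2:62452936-62456648) was called in beta libraries. The region chr2:62456569-62456846 had a fold of 5.08 in beta 2 and 5.47 in beta 3, both with a -log10 q over 4. Beta 1 had a separate peak at that start, at a fold of 1.8 and a -log10 q of 0.0774, and no alpha or delta library had one. The antisense gene Gm13561, whose body spans chr2:62357071-62470913, had no peak within 1 kb of its start in any library.

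The number of peaks in the Gcg window per 10000 peaks of the list was 0.457 and 0.625 in the alpha libraries, 0.193, 0.329, and 0.289 in the beta libraries, and 0.253 and 0.659 in the delta libraries. Both alpha values were above the 3 beta values and lay between the delta values. The alpha libraries exceeded the mean of the others by 0.197 (exact permutation p = 0.238, adjusted p = 0.635), and the spread between the 3 cell types had an exact permutation p of 0.248 (adjusted p = 0.396), so neither passed. Without beta 1 the excess was 0.159 (p = 0.6 for the spread, exact permutation). Among peaks whose -log10 q reached 2, the alpha values of 0.768 and 1.22 per 10000 such peaks were above all beta and delta values. Those were 0.386, 0.624, and 0.526 in beta and 0.213 and 0.72 in delta (exact permutation p = 0.19 for the spread, adjusted p = 0.335).

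Dpp4 (ENSMUSG00000035000.8, chr2:62330073-62412231, 82159 bp) encodes the peptidase that inactivates GLP-1, and its start was called in all 7 libraries. The start region, chr2:62411172-62412104, had a fold enrichment of 3.75 and 7.43 in the alpha libraries. It was 3.85, 6.06, and 8.23 in the beta libraries, and 7.28 and 4.29 in the delta libraries. Each cell type held both low and high values, so the groups overlapped, and every peak reached a -log10 q of 2. The percentiles were 65.6 and 84.7 in alpha, 95.0, 88.2, and 91.1 in beta, and 88.7 and 50.1 in delta libraries. The top rank of beta 1 depended on which of its peaks were counted, since the same peak was at 48.4 among the 50000 strongest peaks and at 0.403 among peaks whose -log10 q reached 2. The alpha mean minus the mean of the others was -7.46 points (exact permutation p = 0.81, adjusted p = 1.0), and the spread between cell types had an exact permutation p of 0.248 (adjusted p = 0.396). Without alpha 1 the difference was 2.05, so its direction rested on that library, and without beta 1 it was -4.36.

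The most enriched region of the Dpp4 window lay 7954 bp upstream of the 5′ end, at chr2:62419929-62420429, in an intron of Gm13561. All 7 libraries called it, at a fold of 11.7 and 13.9 in alpha, 15.3, 17.3, and 19 in beta, and 20 and 12.4 in delta libraries. In every library this was above the fold at the Dpp4 start itself, and the 7 summits fell within 33 bp. Both alpha values were below all 3 beta values, while the delta values lay above and below all of the beta values. Its 250 bases around the summit are shown as the highest ranked region of the window (chr2:62420061-62420310, GRCm38.p6, minus strand), with the GATA letters AGATAA in capitals.

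Dpp4 upstream region: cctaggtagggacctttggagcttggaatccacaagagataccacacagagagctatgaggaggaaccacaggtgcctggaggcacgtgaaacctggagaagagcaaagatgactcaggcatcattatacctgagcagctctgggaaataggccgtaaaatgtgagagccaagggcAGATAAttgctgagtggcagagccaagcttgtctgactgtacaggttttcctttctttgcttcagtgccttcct

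AGATAA occurred in 15.0% of the 300-base windows around the summits of 133675 regions of the series. The Dpp4 promoter in RefSeq held AGATAA 32 bases before the start, TATAAA at 227, and GAAANNGAA, on the opposite strand, at 51. Its CpG ratio of 0.26 was at percentile 37.0 of all promoters.

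Within the Dpp4 body, regions differed in the libraries that called them. The intronic region chr2:62398509-62398857, 13551 bp downstream of the 5′ end, was called in all 3 beta and both delta libraries and in neither alpha library. Its fold was 7.26, 4.1, and 4.76 in the beta libraries and 4.3 and 8.33 in the delta libraries. All 5 peaks had a -log10 q of at least 2.73, with summits within 48 bp. This was the only one of the 29 regions with a peak of that strength in every beta and delta library and none in alpha. Its sequence, chosen for display after these values were seen, is given for chr2:62398556-62398805 (GRCm38.p6, minus strand), with the homeodomain letters TAATTA and, on the opposite strand, GAAANNGAA in capitals.

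Dpp4 intron region: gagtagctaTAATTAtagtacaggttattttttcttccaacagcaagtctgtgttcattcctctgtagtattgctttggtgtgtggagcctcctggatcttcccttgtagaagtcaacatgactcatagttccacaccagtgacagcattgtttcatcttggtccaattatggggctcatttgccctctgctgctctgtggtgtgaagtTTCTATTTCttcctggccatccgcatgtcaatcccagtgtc

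TAATTA occurred in 8.19% and GAAANNGAA in 9.39% of the summit windows of all regions. Another Dpp4 intron region, chr2:62382807-62383620, had its highest fold in delta 1, at 12.7, against 4.86 in delta 2. The alpha libraries had 3.0 and 5.13, beta 1 had 1.8, beta 2 had 3.39, and beta 3 had no peak. Delta 1 thus stood above the other libraries, delta 2 included. The region chr2:62392336-62392963 was called in both delta libraries at 8.44 and 4.92, in alpha 2 at 3.67, and in beta 1 at 3.57.

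Toward the 3′ end of Dpp4, the region chr2:62333741-62334551 was called in all 7 libraries. Its fold was 2.25 and 2.9 in the alpha libraries, below a -log10 q of 2 in both. It was 5.93, 4.41, and 4.62 in the beta libraries, and 3.38 and 5.63 in the delta libraries. Both alpha values were below all 5 other values. Between the 3′ ends of Dpp4 and Slc4a10, the intergenic region chr2:62326977-62327478 was called in 6 libraries, with folds of 8.8 in alpha 2, 6.16 in delta 1, and 9.7 in delta 2, and 3.0 to 4.39 in alpha 1, beta 1, and beta 3. Beta 2 had no peak there. One more intronic region, chr2:62334734-62335348, had folds of 3.0 and 5.13 in the alpha libraries and 2.78 in delta 2, and no beta list held it.

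The density of peaks in the Dpp4 window was 0.839 and 0.715 per 10000 in the alpha libraries, 0.424, 0.988, and 0.962 in the beta libraries, and 0.886 and 2.5 in the delta libraries. Delta 2 stood apart from the other 6. The alpha difference was -0.376 (exact permutation p = 0.571, adjusted p = 1.0), and the spread between cell types had an exact permutation p of 0.305 (adjusted p = 0.406). Without delta 2 the difference was -0.0384, and without beta 1 it was -0.558.

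Fap (ENSMUSG00000000392.17, chr2:62500943-62574075, 73133 bp) had no strong peak at its start. Beta 1 alone had one, at a fold of 2.7 and a -log10 q of 1.1, and the other 6 libraries had none. The percentile of that peak within the long beta 1 list was 90.9, a difference of -18.2 between alpha and the others (exact permutation p = 1.0 for that difference and for the spread), and without beta 1 every library was at 0. Of the 3 mesenchymal markers (Col1a1, Pdgfra, Pdgfrb), the number with a peak at the start was 2 in both alpha libraries, 1, 1, and 0 in the beta libraries, and 2 and 1 in the delta libraries. Only the Pdgfrb peak of delta 2 reached a -log10 q of 2. At any transcript start, 1 of them reached it in alpha 1, 2 in delta 2, and none in the other libraries.

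A strong region inside Fap was called in alpha and delta libraries and in no beta library. It lies at chr2:62535433-62535847, 38413 bp downstream of the Fap 5′ end, with its summit in an intron and its edge over an exon of a noncoding transcript. Its fold was 10.7 and 10.4 in the alpha libraries, and 5.84 and 7.03 in the delta libraries. All 4 peaks had a -log10 q of at least 5.55, and the summits fell within 57 bp. Both alpha values were above both delta values, and the alpha folds were higher than those of the Gcg start in the same libraries. By -log10 q the order turned, with 15.1 and 16.4 here against 16.8 and 16.5 at the Gcg start. The sequence around the summit, chosen for display after these values were seen, is given for chr2:62535538-62535787 (GRCm38.p6, minus strand), with AGATAA, on the opposite strand, in capitals.

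Fap intron region: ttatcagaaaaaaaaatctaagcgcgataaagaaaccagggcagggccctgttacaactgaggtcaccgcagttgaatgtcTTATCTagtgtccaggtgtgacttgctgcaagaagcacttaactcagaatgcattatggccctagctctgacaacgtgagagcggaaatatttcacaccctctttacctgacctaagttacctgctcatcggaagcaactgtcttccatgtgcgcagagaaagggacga

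In the 300 bases around this summit, AGATAA occurred 3 times, of which 1 lies in the 250 bases printed. In the window of the alpha region at the 3′ part of Fap, 18875 bp upstream of Gcg, it occurred 2 times. Over the 29 regions, 9 held AGATAA (31.0%), against 15.0% of all regions. GAAANNGAA was in 17.2% against 9.39%, TAATTA in 13.8% against 8.19%, TATAAA in 20.7% against 15.6%, and GGGCGG in 6.9% against 13.7%. The forkhead letters TGTTTAC were in 10.3% against 6.69%, and TGTTTGC in 10.3% against 9.0%. Nearer to each other were CATCTG at 27.6% and 25%, TGCTGAC at 6.9% and 6.55%, TTCNNNGAA at 10.3% and 9.07%, GTTAAT at 10.3% and 10.8%, and TGACGTCA at 0% and 0.759%. The median GC content of the windows searched was 42.7%, against 47.0% in the whole series, and the part of base composition in these counts was not tested. These are counts of letters and do not show that a factor was bound.

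The density of peaks in the Fap window (chr2:62480943-62594075, which shares its proximal end with the Gcg window) was 0.61 and 0.625 per 10000 in the alpha libraries, 0.501, 0.329, and 0.481 in the beta libraries, and 0.633 and 0.923 in the delta libraries. Over all peaks the 3 cell types did not overlap, with beta lowest and delta highest. For the spread between them the exact permutation p was 0.00952, the smallest this design can give, and 0.0762 after adjustment, so the result did not pass the threshold. The alpha mean minus the mean of all others was 0.0441 (exact permutation p = 0.81, adjusted p = 1.0), and without beta 2 it was -0.0169. In the 50000 strongest peaks of each list the exact permutation p for the spread was 0.6. Within lane 6 the alpha mean was 0.618 and the beta value 0.501, and within lane 7 the delta mean was 0.778 and the beta mean 0.405. Without beta 1 the p was 0.0667 (exact permutation, adjusted p = 0.533), again the smallest that the remaining libraries allow.

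Ifih1 (ENSMUSG00000026896.14, chr2:62595798-62646255, 50458 bp) had a strong peak at its start in all 7 libraries. The region chr2:62645533-62646426 had a fold of 10.5 and 10 in the alpha libraries, 12.9, 9.15, and 16.5 in the beta libraries, and 17 and 12.6 in the delta libraries. The percentiles were 93.5 and 90.8 in alpha, 99.7, 95.3, and 98.2 in beta, and 98.8 and 95.4 in delta libraries. Both alpha percentiles were below the other 5, by a difference of -5.36 between the means. Alpha against all others gave an exact permutation p of 0.0476, the smallest that this split allows (adjusted p = 0.19), and the spread between cell types one of 0.133 (adjusted p = 0.356), so neither passed. By fold, beta 2 was below both alpha libraries. Without beta 1 the difference was -4.81 (p = 0.267 for the spread, exact permutation). Of the 3 immune markers (Ptprc, Cd68, Csf1r), 2 had a start peak in beta 1 and 1 in delta 1, none in the other libraries, and no such peak reached a -log10 q of 2, nor did any at another transcript start.

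The Ifih1 promoter is shown as the one with the most CpG among those of Gcg, Dpp4, and Ifih1, with an observed to expected ratio of 0.819 at percentile 80.7 of all promoters (RefSeq, chr2:62646256-62646505, GRCm38.p6, minus strand). Capitals mark GAAANNGAA, the core of the interferon response element, on the opposite strand at 112 bases before the start, and the Hnf1 letters GTTAAT, on the opposite strand at 229.

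Ifih1 promoter: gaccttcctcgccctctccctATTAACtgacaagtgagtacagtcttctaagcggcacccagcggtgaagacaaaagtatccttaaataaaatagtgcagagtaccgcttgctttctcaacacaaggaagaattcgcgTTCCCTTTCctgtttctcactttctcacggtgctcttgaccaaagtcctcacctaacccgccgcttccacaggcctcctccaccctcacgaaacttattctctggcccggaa

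GAAANNGAA occurred in 8.56% and GTTAAT in 7.1% of all promoters. Within the gene, the intronic region chr2:62618804-62619371 was called in 6 libraries. Its fold was 9.83 and 6.1 in the alpha libraries, 3.73 and 4.02 in beta 2 and beta 3, and 6.38 and 8.23 in the delta libraries, and beta 1 had no peak. The beta values were thus below all alpha and delta values. The nearby intronic region chr2:62621368-62622017 was called in 5 libraries, at its highest in alpha 2, with 6.69, and was absent from beta 3 and delta 2.

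Upstream of Ifih1 by 8466 bp, the intergenic region chr2:62654542-62654889 was called in all libraries except beta 3. Its fold was 6.75 and 3.67 in the alpha libraries, 8.47 and 6.78 in beta 1 and beta 2, and 9.09 and 8.33 in the delta libraries. In every library except beta 2, the most enriched region of the 4 windows was the start of Gca (chr2:62664037-62664705), which encodes a calcium-binding protein of granulocytes. Its fold was between 13.6 and 22.8 in the 7 libraries, and the groups overlapped. In beta 2 it was 13.6, below the 17.3 of the region upstream of Dpp4. The density of peaks in the Ifih1 window was 0.534 and 0.715 per 10000 in the alpha libraries, 0.27, 0.768, and 0.577 in the beta libraries, and 0.759 and 0.791 in the delta libraries, with an alpha difference of -0.00904 (exact permutation p = 1.0). The spread between cell types had an exact permutation p of 0.41 (adjusted p = 0.468), and without beta 1 the difference was -0.0998. The sign of that small difference changed without alpha 1, beta 2, or either delta library.

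**Figure D3:**
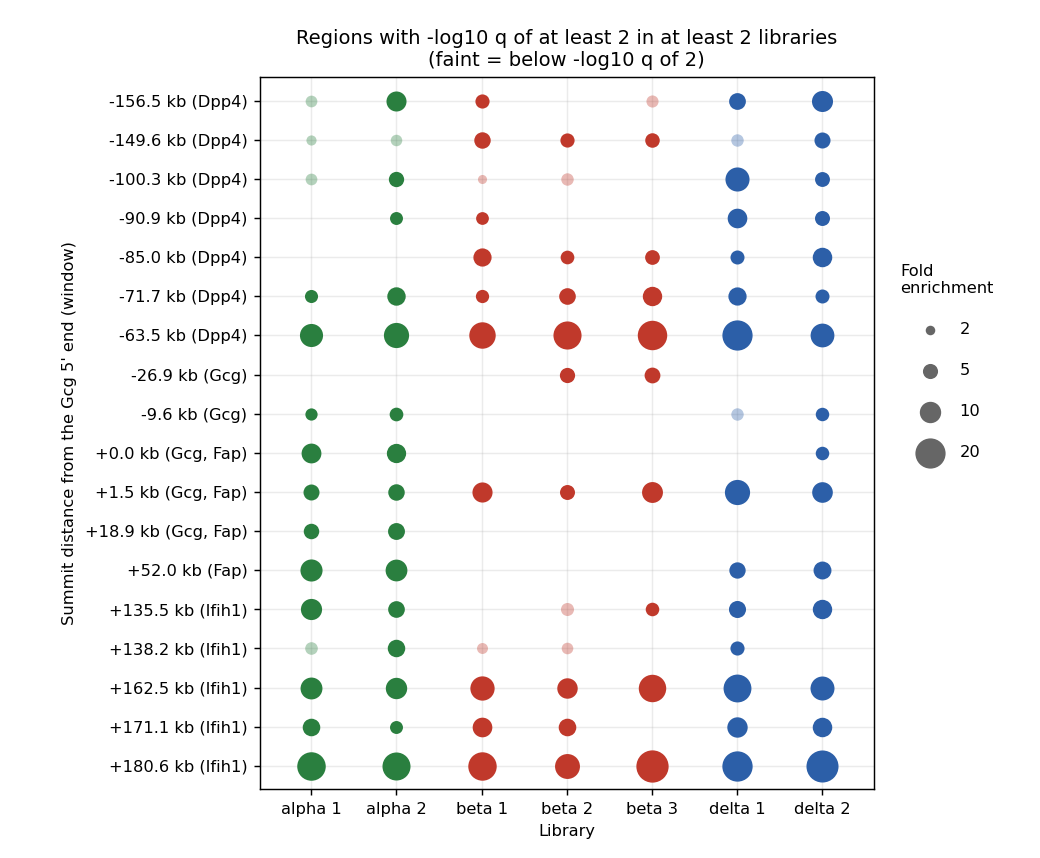
The 18 regions of the windows whose -log10 q reached 2 in 2 or more libraries (rows, by summit distance in kb from the Gcg 5′ end, with the window they belong to) in each library (columns); the area of a dot is the fold enrichment and faint dots are peaks under a -log10 q of 2. Rows near Gcg and in Fap hold alpha dots with no beta dots, while 6 rows hold a dot in every library.

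Across the 4 windows, regions called in both alpha libraries and in no beta library were counted next. There were 6 among the 29 (20.7%), against 5.41% of all regions called in 2 or more libraries. They were 4 of the 7 in the Gcg window (57.1%), 3 of the 6 in the Fap window (50.0%), 1 of the 13 in the Dpp4 window, and none of the 8 in the Ifih1 window, where the Gcg and Fap windows share 2 of them. The difference from the whole series was smaller once the weak beta 1 peaks were removed. Without beta 1 it was 6 of 28 (21.4%), against 16.0%, and among peaks whose -log10 q reached 2 it was 4 of 18 (22.2%), against 14.9%. In the 50000 strongest peaks of each list it was 4 of 19 (21.1%), against 10%. Under these settings the share in the windows stayed between 20.7% and 22.2%, and the share in the whole series moved. With flanks of 5 kb and 50 kb the count was 6 of 24 and 6 of 33. It was 6 of 25 when peaks had to cover 0.5 of a region, so the window share moved more there.

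Regions called in all 7 libraries numbered 6 (20.7%), against 13.3%, and those in all of the libraries other than beta 1 numbered 7 (25%), against 20.6%. The 6 were the starts of Dpp4, Ifih1, and Gca, the regions upstream of Gcg and Dpp4, and the region at the 3′ part of Dpp4. Regions called in both delta libraries and in no alpha library numbered 2 (6.9%), against 5.13%, and both were in the Dpp4 window. That order turned under every alternative with a share for the whole series, with 7.14% against 7.59% without beta 1, 5.56% against 7.9% among peaks whose -log10 q reached 2, and 5.26% against 8.46% in the 50000 strongest peaks. None was called in both delta libraries and nowhere else, against 2.06%, and without beta 1 this was 3.57% against 4.71%.

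Regions called in at least 2 beta libraries and in no alpha library numbered 3 (10.3%), against 14.8% of all regions. With no peak in delta as well they numbered 2 (6.9%), against 10.7%. Without beta 1 the first of these counts was again 3 (10.7%), against 3.94%, and the second 2 (7.14%), against 1.94%, so the order of the windows and the whole series turned with that library. Of the 120 regions, 91 were called in a single library, against 700997 of 834695 in the whole series. Of the 91, 48 were from beta 1, whose list held 518503 of the 1190565 peaks of the series. A -log10 q of 2 was reached by 6 of the 91, none of them from beta 1.

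**Figure D4:**
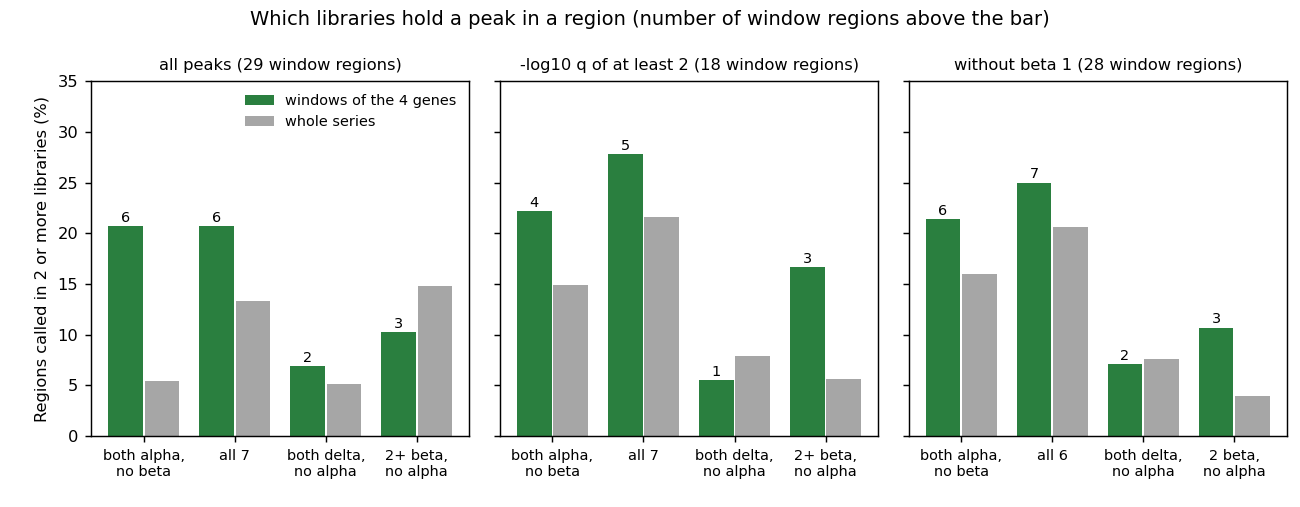
Share of regions called in 2 or more libraries (vertical axis, percent) that show each pattern of cell types (horizontal axis), in the windows of the 4 genes (green, with the number of regions above the bar) and in the whole series (grey), for all peaks, for peaks whose -log10 q reached 2, and without beta 1. The window share for both alpha and no beta stays between 20.7% and 22.2% while the share in the whole series goes from 5.41% to 16.0%.

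Among starts, 2 of the 4 genes (Dpp4 and Ifih1) had a peak within 1 kb in all 7 libraries, a pattern that 41.5% of 21938 protein-coding genes showed. Gcg had one in both alpha libraries and in no beta library, which 1.29% of genes did, and which held at any transcript start too, where 0.93% of genes did so. None of the 4 had a peak in both alpha libraries and nowhere else, which 0.337% of genes did, and none was without a peak in every library, as 17.3% of genes were. The neighbours whose bodies reach into the windows, Slc4a10 (a sodium bicarbonate transporter) and Gca, had a start peak in all 7 libraries.

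The 5 protein-coding genes whose 7 start percentiles lay nearest to those of Gcg, by Euclidean distance in percentile points, were Id3 at 22.6, Arhgdia at 26.7, Polr2g at 30.4, Fkbp5 at 32.5, and H1f0 at 34.8. Id3, which encodes an inhibitor of basic helix-loop-helix factors, had 77.0 and 77.9 in the alpha libraries, 52.7 in delta 2, and 0 in the other libraries. Polr2g, a subunit of RNA polymerase II, had 83.8, 65.6, and 59.2 in the same 3 libraries. Each of the 5 had a peak in both alpha libraries and in delta 2 and none in delta 1. Gcg had higher alpha percentiles than any of them.

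Genes that act with the members were examined at their starts, in 5 lists of 44 genes in all. A peak was present in all 7 libraries at 28 of the 44 (63.6%), against 41.5% of protein-coding genes. In both alpha libraries and no beta library it was present at 1 (2.27%), against 1.29%. This was the lysosomal peptidase gene Dpp7, with percentiles of 79.7 and 75.0 in alpha and 0 in all others. No library had a peak at 3 of the 44 (6.82%, against 17.3% of protein-coding genes), Furin, Mme, and Isg15. At any transcript start, Furin and Mme were called in all 7 libraries, so their absence rested on which annotated start was used, and Isg15 remained without a peak. By that measure 32 of the 44 (72.7%) were called in all 7 libraries, against 46.6% of genes, and 1 (2.27%) in none, against 11.3%. Dpp7 alone was called in both alpha libraries and no other, against 0.26% of genes.

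Of 11 genes of proglucagon processing and peptide action, 5 were called in all 7 libraries (45.5%), near the 41.5% of protein-coding genes. They were the prohormone convertases Pcsk1 and Pcsk2, carboxypeptidase E (Cpe), the Pcsk2 chaperone Scg5, and Gipr, the receptor for glucose-dependent insulinotropic peptide. Pcsk2, which cuts proglucagon to glucagon, had folds of 9.54 and 10.8 in alpha, 9.77, 6.47, and 10.9 in beta, and 11.3 and 13.2 in delta libraries. Pcsk1, which yields GLP-1, had folds of 3.62 and 5.13 in alpha, 3.73, 6.06, and 5.38 in beta, and 6.41 and 4.84 in delta libraries. The values of the cell types overlapped at Pcsk1.

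Of the 8 genes of the prolyl peptidase family, 5 were called in all 7 libraries (62.5%, against 41.5% of protein-coding genes). They were Dpp4, Dpp8, Dpp9, Dpp10, and Prep, so the starts of Fap, Dpp6, and Dpp7 were exceptions. At any transcript start Dpp6 was called in all 7 libraries, Fap in 5, and Dpp7 in 2. Of 10 genes of the RNA-sensing pathway, 7 were called in all libraries (70.0%, against 41.5%). These included Ifih1, its relative Ddx58 (RIG-I), the adaptor Mavs, and the kinase Tbk1, while Isg15, an interferon-stimulated gene, was called in none. Of 10 factors known to act on the glucagon promoter, 7 were called in all libraries (70.0%, against 41.5%). Among them were Foxa1, Foxa2, Isl1, Neurod1, Pou3f4, and Irx2. Irx2 had folds of 8.99 and 10.7 in alpha, 1.79, 4.76, and 8.78 in beta, and 6.58 and 7.56 in delta libraries, with both alpha values above the other 5. Of 5 chromosome neighbours, Psmd14, Slc4a10, Gca, and Kcnh7 were called in all 7 libraries (80.0%, against 41.5%), and Tbr1 was not.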

How the data were processed

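The values are ATAC-Seq peak calls from 2 alpha, 3 beta, and 2 delta cell libraries. Per the study's methods and the submitters' processing notes, reads were trimmed (FastQC, Trimmomatic), aligned to mm10 without the mitochondrial genome (Bowtie2), marked for duplicates (Picard) and freed of blacklisted regions, and peaks were called in each library (MACS2). The deposited lists hold a display score, the fold enrichment over local background (a ratio computed by the authors), and the -log10 p-value and -log10 q-value that the authors' MACS2 gave. They hold no read counts, so the study's read-based test could not be run, and they give no read depth; the depths in the study's supplement are not used here. A missing peak does not show closed chromatin, and libraries can differ in depth.

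Rows repeating an interval were reduced to the one of highest -log10 p, and peaks sharing at least 1 bp were merged across libraries. Gene bodies are from GENCODE vM21 and promoters from RefSeq GRCm38.p6, matched for Gcg, Dpp4, and Ifih1, not for Fap. Percentiles use the middle rank for ties; in beta 1, 73.0% of peaks share 1 -log10 p. Groups were compared by an exact permutation test over 210 assignments with Benjamini-Hochberg adjustment over 8 tests (python 3.11.15, numpy 2.4.6), checked on simulated data; patterns are counts with no test. No pair of lists shared over 6 identical peaks. Animals were pooled, and p-values measure only the spread between these libraries. The study states that its cell types came from the same animals, while the main test treats the 7 libraries as separate. Alpha and delta cells came from different driver lines, so only beta libraries can share animals with either.

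Genes named are the 4 members, genes overlapping their windows, list genes showing a counted pattern, and the 5 genes nearest to Gcg; regions named are those at the members' starts and those whose -log10 q reached 2 in 2 libraries. The weaker regions near the 3′ end of Gcg and in Dpp4, 2 printed sequences, the values given for list genes, and the lookup at any transcript start were chosen after their values were seen. By rule the region upstream of Gcg also stands for Fap, and the start of Gca for Ifih1, in place of which the Ifih1 promoter is printed. Single values of some list genes are not reported here. The members and lists were chosen with earlier results of these data known.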

Additional observations from a re-analysis of the deposited data

How the results depend on the processing

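None of the 8 tests passed the adjusted threshold, in the main comparison or under any alternative, so the alternatives bear on direction and size only. The alpha difference at the Gcg start was between 81.0 and 92.8 points with any library left out, and 1.48 with a start window of 3 kb. At the Fap start it was -18.2, 0.0 with peaks of a -log10 q of at least 2, 39.8 when any Fap transcript start counted, and between -22.7 and 0.0 with a library left out. With a library left out it was between -17.0 and 2.05 at the Dpp4 start and between -6.71 and -4.02 at the Ifih1 start, while the 50000 strongest peaks gave -21.6 and -13.7 and peaks whose -log10 q reached 2 gave -3.5 and -11.5. For window density the range with a library left out was 0.113 to 0.281 for Gcg, -0.558 to -0.0384 for Dpp4, -0.0169 to 0.131 for Fap, and -0.0998 to 0.0814 for Ifih1. For Gcg, Dpp4, and Fap it was 0.502, -0.996, and 0.474 among peaks whose -log10 q reached 2, and 0.48, -0.76, and 0.28 in the 50000 strongest peaks. The Ifih1 density difference also lost its sign in the 50000 strongest peaks (0.0), with a flank of 5 kb (0.0138), and by covered bases per 10000 peaks (22.8). The cause was not tested.

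Same-numbered libraries did not deviate together (correlations of -0.0228 to 0.0857). Such weak correlations cannot show that no libraries share animals. The labels do not say that equal numbers mark shared animals, and alpha and delta cells came from different driver lines. With the number as a replicate block the difference at the Gcg start, 83.4 points, had an exact permutation p of 0.111 (adjusted p = 0.222) and the Fap window density one of 0.0556 (adjusted p = 0.222), and no call changed. With cell types permuted only within a lane the exact permutation p was 0.167 for the Gcg start. It was 0.0556 for the Fap window density, again the smallest possible.

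Counts of regions moved as follows. At a -log10 q of at least 2, regions in both delta and no alpha numbered 1. Those in 2 beta and no other numbered 1 (5.56%, against 2.6% in the whole series). In the 50000 strongest peaks these were again 1 and 1, the second at 5.26% against 4.52%. With a flank of 5 kb, those in 2 beta and no other numbered 1 of 24, against 10.7% of all regions. With 50 kb, those in 2 beta and no alpha numbered 5 of 33, against 14.8%. When peaks had to cover 0.5 of a region, both alpha and no other gave 3, 2 beta and no alpha 5, both delta and no other 1, and all libraries 3. Without beta 1, both delta and no other gave 1. Of the 44 list genes, 3 had a start peak in both alpha and no beta and 8 in no library at a -log10 q of at least 2; with 3 kb these were 0 and 0, and 0 for both alpha and no other; at any transcript start, an alternative chosen after seeing the data, 1 gene had a peak in no library. Without beta 1, 4 had none. Shares over the whole series are not given for the coverage setting, nor for list genes at these alternatives other than any transcript start. Those counts therefore do not show how the windows or lists compare with the whole. Lists of unequal length and the absence of read counts limit every statement about a missing peak.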

Other observations

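Beyond the values given above, some list genes and markers resembled or opposed Gcg at their starts. They were named after their values were seen and not tested. Irx1, a homeodomain factor, had start peaks of a fold of 8.57 and 5.06 in alpha, 4.12 and 3.42 in delta, and 3.21 in beta 3 alone among beta libraries. Glp1r, the receptor for the other main product of Gcg, had no peak in either alpha library or beta 3, a fold of 2.59 in beta 1 with a -log10 q of 0.939, 4.69 in beta 2, and 3.58 and 4.2 in the delta libraries, where the delta 1 peak had a -log10 q of 1.91. Rbp4, a delta marker, had folds of 7.78 and 5.88 in alpha, 5.98 and 9.3 in delta, and no peak within 1 kb of its 5′ end in the beta libraries. The start of Sst had folds of 3.57 in beta 1, 2.91 in delta 1, and 2.9 in delta 2, and no peak in the other libraries; the -log10 q was 2.34, 0.951, and 0.966.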
